A study of Mus musculus with 8 samples.

Results

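The MYC network is a family of transcription factors of the basic helix-loop-helix leucine zipper class. The 10 genes described here are Myc, Mycn and Mycl, their shared partner Max, the MXD family genes Mxd1, Mxd3, Mxd4 and Mxi1, the related repressor Mnt, and Mlx. They were chosen by symbol, and all 10 were found among the 56691 rows of the deposited count table. RNA had been sequenced in bulk from 8 organoid cultures, 3-dimensional cultures grown from the epithelium of the hindstomach, or glandular stomach, of mice at embryonic day 18.5. The control cultures (Ctrl, 4 libraries) carried Shh-Cre, a Cre recombinase driven from the Shh locus, which is active in the early gut epithelium. The other cultures (YAP5SA, 4 libraries) carried Shh-Cre and YAP5SA, a YAP protein that can no longer be phosphorylated at the sites through which the Hippo pathway restrains it. Both groups thus carry the Cre, and both had spent 5 days in growth medium and 7 more in differentiation medium.

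Proteins of the MYC family bind DNA as heterodimers with MAX, at a short sequence called the E-box, and there they activate genes of growth, metabolism and ribosome production. MXD proteins, MXI1 and MNT compete for MAX and for the same sites, and they recruit SIN3 and histone deacetylase complexes that repress transcription. MLX is another hub, which pairs with some of the MXD proteins and MNT, and with MLXIP (MondoA) and MLXIPL (ChREBP), which respond to glucose. In gut epithelium MYC is best known from dividing progenitors and MXD1 from cells that leave the cell cycle and mature.

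Of the 10 genes, 9 had enough counts to be tested, and edgeR's quasi-likelihood test called 5 of them, 1 higher and 4 lower in YAP5SA, at a Benjamini-Hochberg adjusted p under 0.05. Among all 13812 genes tested, 64.5% were called, 33.1% higher and 31.3% lower, so a call as such does not set these genes apart. Mycl rose, and Mycn, Mxd1, Mlx and, narrowly, Mxd4 fell. Myc itself, Max, Mxi1 and Mnt were not called, and Mxd3 lay under the filter on low counts. The groups did not overlap for 4 of the 9 tested genes, 1 above and 3 below Ctrl. Among all tested genes 58.7% did not overlap, 30.4% above and 28.3% below. The median log2 fold change (YAP5SA over Ctrl) was -0.26 over the 9 genes and 0.02 over all tested genes. When libraries were scaled by their size alone, the median of all genes moved to 0.19, 64.2% of all calls were higher in place of 51.4%, and 2 of the 9 genes were higher and 3 lower.

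Facts of the libraries bear on every value below. The total was 17387372 to 25841256 counts per library, and 3 counts, the floor used here where a library has 0, equal 0.125 to 0.178 CPM (counts scaled to a common library size). Yap1 RNA averaged 118 CPM (SD 11.04, n = 4) in control cultures and 140 (SD 2.22, n = 4) with YAP5SA, and its row does not tell endogenous from transgenic RNA. The YAP target gene Ccn1 rose by 3.76 (SE 0.09) on the log2 scale (edgeR adjusted p = 1.46e-12). The female transcript Xist had 8436 to 12237 counts in each Ctrl library and 0 to 8 in each YAP5SA library. Each of the 4 Y-linked genes examined was at 0 throughout Ctrl and had at least 880 counts per YAP5SA library, so genotype and sex-linked transcripts cannot be told apart. No label ties a replicate to an embryo, litter or day of culture, and the p-values therefore reflect only the spread among these cultures, which may be technical. Of 10 epithelial markers none was at 0, and their summed level was 19335 to 21706 CPM in Ctrl and 10533 to 12348 CPM in YAP5SA. Of these, 6 fell, Krt19, Krt8, Cldn18 and Cdh1 among them, 3 rose (Epcam from 296 to 592 CPM, Cldn4 from 131 to 277 CPM and Cldn7 from 89.1 to 114 CPM) and Krt18 was not called. Of 12 mesenchymal markers, Col1a2, Col6a3, Lum, Twist2 and Postn were at 0, and the summed level was 0.584 to 1.52 CPM in Ctrl against 24.0 to 29.0 CPM in YAP5SA, most of it Vim. The 8 immune markers, of which Adgre1 was at 0, summed to 9.53 to 19.0 CPM and to 68.8 to 74.3 CPM, most of it Cd68 and, in YAP5SA, Csf1r (0.319 ± 0.0845 and 32.0 ± 2.73 CPM). Summed levels in Ctrl and YAP5SA were 2.72 to 3.54 and 4.58 to 5.45 CPM for 8 endothelial markers, 5.03 to 6.26 and 2.23 to 3.33 CPM for 8 neural and glial markers, and at most 2.08 CPM for 6 muscle markers. Those of 5 erythroid markers were at most 0.447 CPM. The 4 mesothelial markers summed to 3651 to 4310 and 2978 to 3287 CPM, most of it Msln, which fell by 0.42 on the log2 scale, while Upk3b rose from 23.4 to 101 CPM (2.11) and Wt1 went from 0 to 1.08 CPM. The part of such cells in the results was not tested. In bulk RNA, fewer cells of a type and less RNA per cell cannot be told apart.

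The promoters of the genes are shown first, because MYC, MXD and MLX dimers bind the E-box and because the genes moved in different directions. RefSeq's table for GRCm38.p6 held windows of 300 bases, 250 before and 50 after a transcription start, for 9 of the 10 genes (11 windows, 3 of them for Mxi1). Myc was not among them. The E-box CACGTG, which reads the same on both strands, stood in 1 window each of Max, Mxd4, Mnt and Mlx, 4 of the 9 genes. That is 4 of the 11 windows, against 7.15% of all 32851 windows. GGAATG, the core that TEAD factors, the DNA-binding partners of YAP, recognise, stood on neither strand of these 11 windows and in 14.7% of all windows. A match is a description of the letters and not a bound site. The upstream stretches of the 4 genes with the clearest changes are given here, 5′ to 3′ in GRCm38.p6, with any E-box in capitals and with bases that GENCODE M21 places in an exon left out.
Mycn, chr12:12941915-12942086, minus strand: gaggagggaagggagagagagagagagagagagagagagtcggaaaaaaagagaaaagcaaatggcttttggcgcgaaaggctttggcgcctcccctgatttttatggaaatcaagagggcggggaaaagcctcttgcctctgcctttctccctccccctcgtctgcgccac
Mycl, chr4:122995812-122995930, plus strand: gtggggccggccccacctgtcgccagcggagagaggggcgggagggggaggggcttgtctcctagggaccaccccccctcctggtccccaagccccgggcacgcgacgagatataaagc
Mxd1, chr6:86669162-86669409, minus strand: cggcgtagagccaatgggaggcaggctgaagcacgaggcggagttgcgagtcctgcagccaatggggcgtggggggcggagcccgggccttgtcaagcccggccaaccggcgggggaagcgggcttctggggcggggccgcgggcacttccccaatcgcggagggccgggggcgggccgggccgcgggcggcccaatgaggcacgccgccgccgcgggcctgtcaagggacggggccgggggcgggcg
Mlx, chr11:101087040-101087276, plus strand: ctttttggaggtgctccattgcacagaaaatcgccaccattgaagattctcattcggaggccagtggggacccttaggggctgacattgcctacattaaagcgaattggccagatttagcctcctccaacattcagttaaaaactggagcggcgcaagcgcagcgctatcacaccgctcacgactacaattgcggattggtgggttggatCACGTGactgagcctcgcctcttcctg
The Mlx E-box begins 40 bases before the start. The E-boxes of the other 3 genes are shown with 12 bases on each side, in capitals again, because Max and Mnt were not called and Mxd4 only narrowly.
Max, chr12:76962234-76962263, minus strand: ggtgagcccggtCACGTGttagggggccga
Mnt, chr11:74830789-74830818, plus strand: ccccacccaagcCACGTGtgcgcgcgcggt
Mxd4, chr5:34187912-34187941, minus strand: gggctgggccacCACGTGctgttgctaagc
They begin 3 bases before the start in Max, 123 in Mnt and 219 in Mxd4. An E-box thus occurred both in genes that fell and in genes that were not called.

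Among the MYC paralogues, Mycn fell, Mycl rose and Myc was not called. Myc, the broadly expressed member, was measured, from replicate 1 to 4, at 46.2, 33.6, 36.2 and 46.9 CPM in Ctrl and at 49.8, 46.3, 48.7 and 45.0 CPM in YAP5SA. The same order of replicates is used throughout. The groups overlapped, with Ctrl replicates 2 and 3 below all others and Ctrl replicates 1 and 4 within the range of YAP5SA. The log2 fold change was 0.22 (SE 0.11, 95% interval -0.01 to 0.46, adjusted p = 0.0904), which allows anything from no change to a rise of 0.46. Without Ctrl replicate 4 it was 0.28 and passed the threshold (adjusted p = 0.0381), and without Ctrl replicate 2 it was 0.12 (adjusted p = 0.318). Scaling by library size alone gave 0.39 (adjusted p = 0.00972), and by the upper quartile 0.27 (adjusted p = 0.0432).

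Mycn, the paralogue of embryonic and neural progenitors, had 23.4, 13.7, 14.8 and 8.99 CPM in Ctrl and 3.27, 3.33, 3.84 and 3.10 CPM in YAP5SA. Every YAP5SA library lay below every Ctrl library, and the Ctrl libraries differed among themselves up to 2.60-fold. The mean was 4.50-fold lower in YAP5SA, a log2 fold change of -2.17 (SE 0.24, adjusted p = 3.08e-06). This was the steepest change among the 9 tested genes.

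Mycl, a paralogue of weaker activity, went the other way, with 3.84, 2.61, 2.34 and 3.35 CPM in Ctrl and 5.81, 5.51, 6.66 and 7.57 CPM in YAP5SA. All 4 YAP5SA libraries were above all 4 Ctrl libraries. The mean was 2.11-fold higher, a log2 fold change of 1.08 (SE 0.20, adjusted p = 0.000318), from 44 to 68 counts per Ctrl library and 106 to 166 per YAP5SA library. The calls of Mycn and Mycl held under all 17 alternative settings, with log2 fold changes of -2.37 to -1.92 and 0.95 to 1.25.

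Max, the obligate partner of MYC and MXD proteins, had 64.5, 63.6, 63.2 and 78.4 CPM in Ctrl and 48.7, 45.7, 50.1 and 73.0 CPM in YAP5SA. In each group replicate 4 stood above the other three, and YAP5SA replicate 4 lay within the Ctrl range. The log2 fold change was -0.31 (SE 0.13, adjusted p = 0.0562), just above the threshold. It depended on that library: without YAP5SA replicate 4 it was -0.49 (adjusted p = 0.000530). Without Ctrl replicate 1 or 2 the adjusted p was 0.0444 or 0.0479, and DESeq2 gave 0.0442. Without Ctrl replicate 4 or YAP5SA replicate 1, 2 or 3 it was 0.128, 0.146, 0.169 and 0.134, and library size scaling gave a log2 fold change of -0.14 (adjusted p = 0.376).

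**Figure D1:**
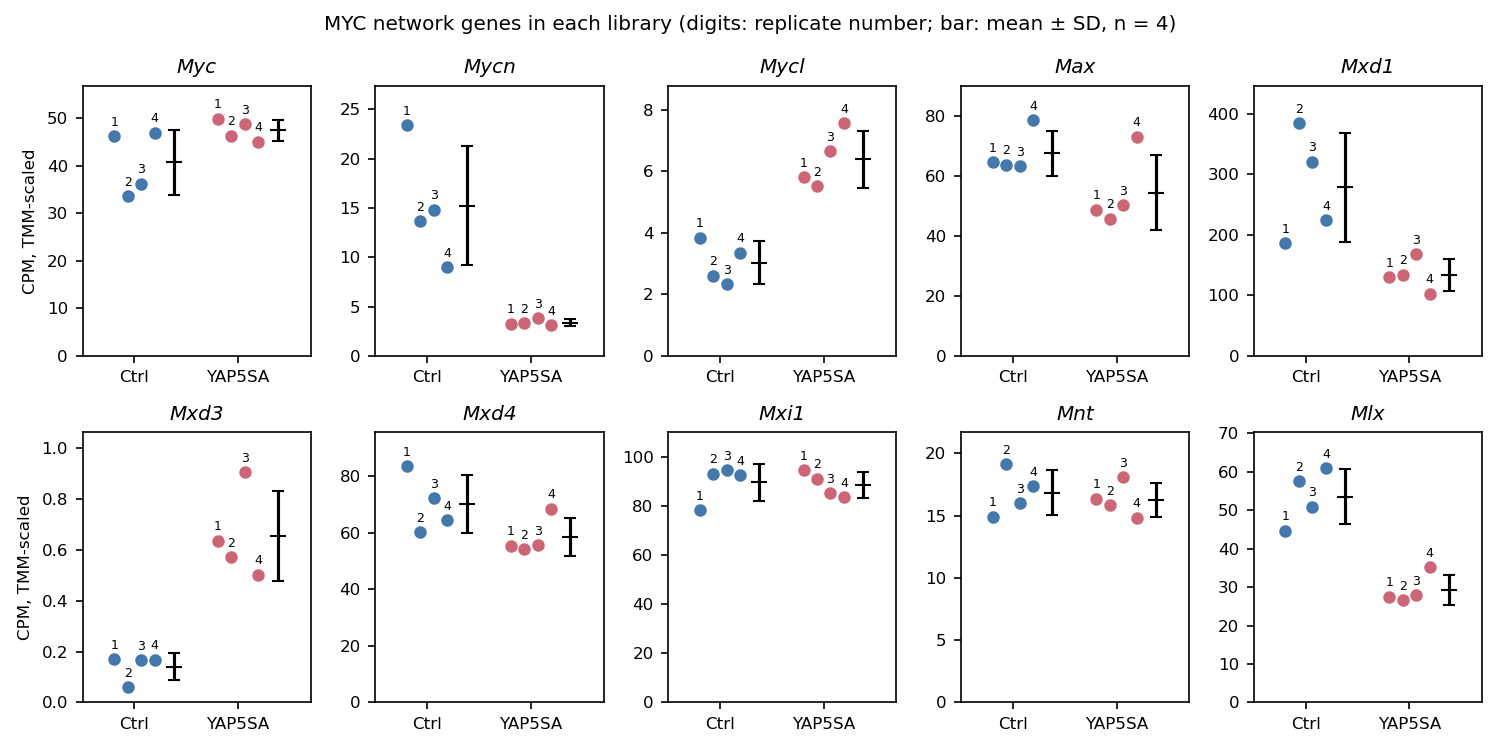
CPM (TMM-scaled, linear axes from 0) of the 10 genes in each Ctrl and YAP5SA library, with replicate numbers and mean ± SD (n = 4). Mycn, Mxd1 and Mlx are lower in every YAP5SA library than in any Ctrl library, Mycl and Mxd3 are higher, and the groups overlap for Myc, Max, Mxd4, Mxi1 and Mnt.

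Among the MAX-binding repressors, Mxd1 had the highest level per exon length and the largest change of the 4 tested. Mxd1, linked to cell cycle exit in maturing cells, had 186, 384, 321 and 225 CPM in Ctrl and 130, 134, 168 and 103 CPM in YAP5SA. The groups did not overlap, and the gap was narrow, between 186 CPM in Ctrl replicate 1 and 168 CPM in YAP5SA replicate 3. The mean was 2.09-fold lower in YAP5SA, a log2 fold change of -1.06 (SE 0.20, adjusted p = 0.000289), which was called under all 17 alternatives (-1.24 to -0.88).

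Mxd3, the MXD member of S phase cells, was near the limit of detection, with 3, 1, 4 and 3 counts in Ctrl and 14, 11, 17 and 11 counts in YAP5SA. Every YAP5SA library had more counts than any Ctrl library, but the gene did not pass the filter with all 8 libraries. Summed over the group, 53 against 11 counts gave a ratio of 4.50 between YAP5SA and Ctrl, with an exact 95% interval of 2.32 to 9.55 that covers counting error only. In the fits with a library left out where it passed, it could do so only through YAP5SA, the group where it was high. Its exons share 105 bases with Prelid1 on the other strand in GENCODE M21, a gene with 18329 counts in Ctrl and 22420 in YAP5SA. Whether counting used the strand is not given in the sources used here, and the part of Prelid1 in this value was not tested.

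Mxd4 had 83.6, 60.1, 72.1 and 64.4 CPM in Ctrl and 55.5, 54.3, 55.5 and 68.5 CPM in YAP5SA. The groups overlapped through YAP5SA replicate 4, which lay above Ctrl replicates 2 and 4. The log2 fold change was -0.26 (SE 0.11, adjusted p = 0.0483), at the threshold. Leaving out Ctrl replicate 1 gave an adjusted p of 0.106 and Ctrl replicate 3 one of 0.0736, so that the call was lost. Leaving out YAP5SA replicate 1, 2 or 3 gave 0.113, 0.124 and 0.109. The call was also lost under upper quartile scaling (adjusted p = 0.106) and under scaling by library size, which gave -0.09 (adjusted p = 0.5002). A filter of at least 1 CPM in 4 libraries gave an adjusted p of 0.0523, so the call was lost there too.

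The other repressors were not called. Mxi1 had 78.2, 93.1, 94.4 and 92.4 CPM in Ctrl and 94.6, 91.0, 85.0 and 83.5 CPM in YAP5SA. Its log2 fold change was -0.02 (SE 0.08, 95% interval -0.19 to 0.15, adjusted p = 0.864). Mnt, a constitutive antagonist of MYC, had 14.9, 19.1, 16.0 and 17.4 CPM in Ctrl and 16.3, 15.8, 18.1 and 14.8 CPM in YAP5SA. Its log2 fold change was -0.05 (SE 0.11, 95% interval -0.29 to 0.19, adjusted p = 0.715). The libraries of the groups lay among each other for both genes, and both signs flipped under upper quartile and library size scaling.

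Mlx, the hub shared with the glucose-responsive factors, had 44.7, 57.5, 51.0 and 60.9 CPM in Ctrl and 27.5, 26.6, 27.9 and 35.2 CPM in YAP5SA. All YAP5SA libraries were below all Ctrl libraries, although YAP5SA replicate 4 stood above its group. The mean was 1.83-fold lower, a log2 fold change of -0.87 (SE 0.12, adjusted p = 1.59e-05), called under all 17 alternatives (-0.98 to -0.69). In GENCODE M21 the Mlx exons share 385 of 1999 bases with Psmc3ip on the other strand. Summed by group, Psmc3ip had 49 counts in Ctrl against 4076 for Mlx, and 169 in YAP5SA against 2411. The part of this overlap was not tested.

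**Figure D2:**
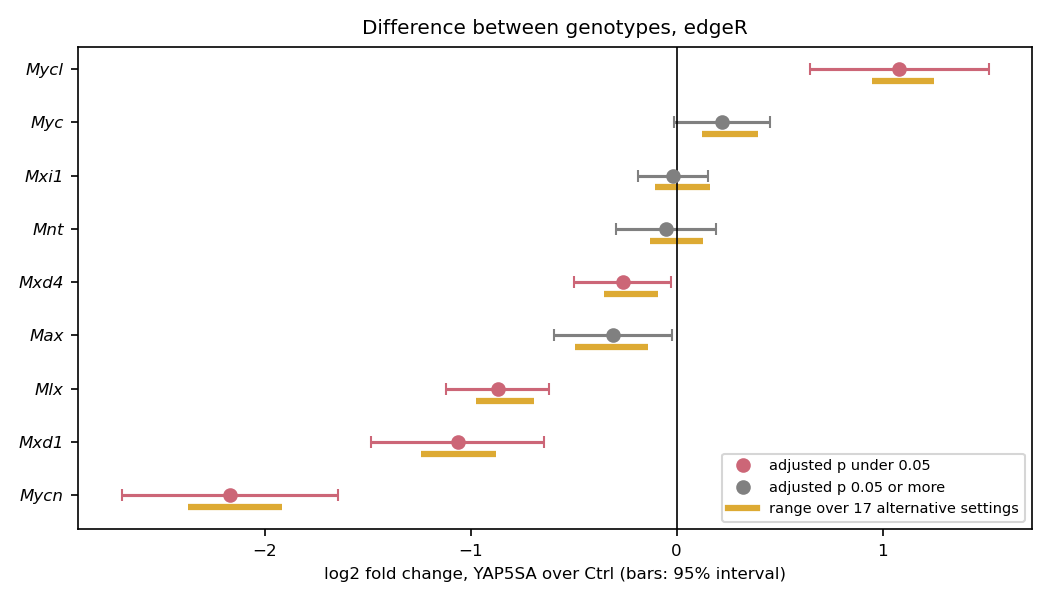
Log2 fold changes (YAP5SA over Ctrl) of the 9 tested genes with 95% intervals from edgeR, red where the adjusted p was under 0.05, and the range over 17 alternative settings in yellow. Mycn, Mxd1, Mlx and Mycl stay on 1 side of 0 throughout, as do Max and Mxd4, whose intervals end close to 0. The ranges of Mxi1 and Mnt cross 0, as under upper quartile and library size scaling.

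Levels were compared between genes as CPM per kilobase of exon, with exon lengths from GENCODE M21. In Ctrl the order was Mxd1 (39.5 ± 12.8, SD, n = 4), Mlx (26.8 ± 3.60), Max (18.7 ± 2.04), Myc (14.99 ± 2.51), Mxi1 (13.1 ± 1.11) and Mxd4 (8.26 ± 1.21). Below them came Mycn (4.62 ± 1.82), Mnt (3.64 ± 0.396), Mycl (0.751 ± 0.170) and Mxd3 (0.0594 ± 0.0229). The libraries of neighbours in this order overlapped for Mxd1 and Mlx, for Myc and Mxi1, for Mxd4 and Mycn, and for Mycn and Mnt. Mxd1 thus stood at the head, above 87.0% of all tested genes with a length over the 8 libraries, and Mycl above 22.3%.

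In YAP5SA the order of CPM per kilobase was Mxd1 (18.9 ± 3.78), Myc (17.5 ± 0.811), Max (15.1 ± 3.49), Mlx (14.7 ± 1.98) and Mxi1 (12.97 ± 0.755), and each overlapped the next. Mxd4 (6.89 ± 0.792), Mnt (3.51 ± 0.293), Mycl (1.58 ± 0.229), Mycn (1.03 ± 0.0961) and Mxd3 (0.276 ± 0.0746) followed with no overlap. Mycl and Mycn had changed places: Mycn lay above Mycl in every Ctrl library and below it in every YAP5SA library. With the length of the longest transcript in place of all exons, Max came before Mlx and Mxi1 before Myc in Ctrl, and Max before Myc and Mxi1 before Mlx in YAP5SA.

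The summed level of the 3 MYC paralogues overlapped between the groups, at 17.2 to 25.1 CPM per kilobase in Ctrl and 19.4 to 20.8 in YAP5SA. Its makeup differed. Myc made up 67.9% to 82.9% of the sum in Ctrl and 85.5% to 88.3% in YAP5SA. Mycn held 13.1% to 28.4% in Ctrl but 4.78% to 5.61% in YAP5SA, and Mycl 3.14% to 3.98% in Ctrl but 6.93% to 9.67% in YAP5SA. None of these 3 shares overlapped between the groups. Shares of 1 sum depend on each other, and the level of Myc itself did overlap. It was 12.4 to 17.3 CPM per kilobase in Ctrl and 16.6 to 18.3 in YAP5SA.

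The summed level of the MXD family and Mnt was lower in every YAP5SA library than in any Ctrl library, at 51.0 to 79.2 CPM per kilobase in Ctrl and 38.2 to 47.0 in YAP5SA. Mxd1 held 51.7% to 68.6% of it in Ctrl and 37.9% to 50.5% in YAP5SA. Mxi1 held 17.2% to 23.9% in Ctrl but 26.5% to 32.5% in YAP5SA. The level of Mxi1 itself overlapped, at 11.5 to 13.8 CPM per kilobase in Ctrl and 12.2 to 13.9 in YAP5SA. The ratio of repressor to MYC paralogue RNA, from replicate 1 to 4, was 2.03, 4.62, 3.88 and 2.72 for Ctrl and 2.05, 2.18, 2.27 and 1.97 in YAP5SA. Ctrl replicate 1 lay among the YAP5SA libraries in this ratio, so the groups overlapped. These sums are descriptions over chosen genes and were not tested.

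**Figure D3:**
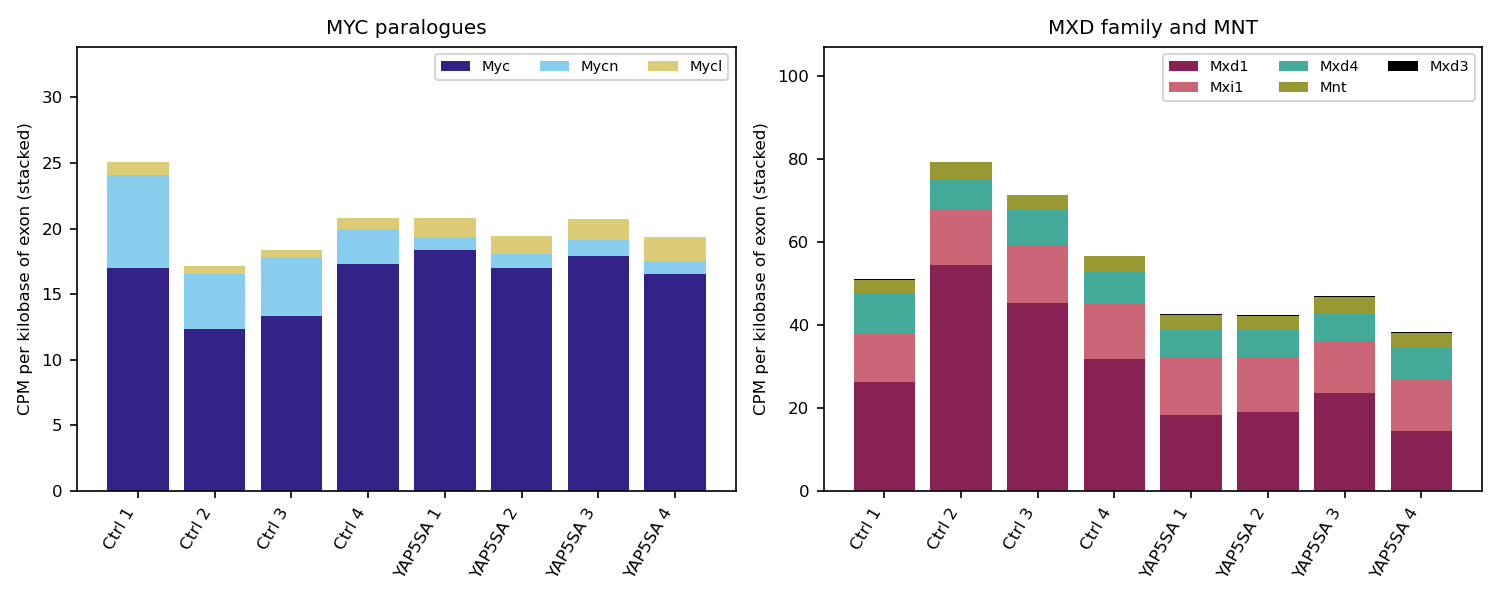
Stacked CPM per kilobase of exon in each library, for Myc, Mycn and Mycl (left) and for the MXD family and Mnt (right). The MYC paralogue sum of YAP5SA, 19.4 to 20.8, lies within the Ctrl range with less Mycn, and the repressor sum of YAP5SA, 38.2 to 47.0, lies below the Ctrl range.

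Ratios of counts to Max within a library do not depend on scaling between libraries. They do carry any difference in Max itself, which was at -0.31 on the log2 scale and not called. The log2 ratio of Mycn to Max was -3.12 to -1.46 in Ctrl and -4.56 to -3.71 in YAP5SA, and that of Mlx to Max was -0.53 to -0.15 and -1.05 to -0.78. That of Mycl to Max ran from -4.76 to -4.07 in Ctrl and was higher in every YAP5SA library, from -3.27 to -2.91. The groups did not overlap in these ratios nor in that of Mxd3, and they overlapped for Myc, Mxd1, Mxd4, Mxi1 and Mnt. For Myc, Mxi1 and Mnt the overlap came only through YAP5SA replicate 4, where Max was high. Its log2 ratios were -0.70, 0.19 and -2.30. The other YAP5SA libraries lay above the highest Ctrl ratios of -0.48, 0.58 and -1.73. For Mxd1 the log2 ratio was 1.52 to 2.60 in Ctrl and 0.49 to 1.74 in YAP5SA.

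Over the 8 libraries, the genes whose log2 CPM followed Myc most closely included Pwp2 (Pearson r = 0.973) and Sdad1 (r = 0.961), out of 8655 tested genes with a mean of at least 10 CPM. Only 7 of these genes had an r above 0.95. The libraries share the genotype difference, so these values are a description.

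The remaining genes of the network were Mga, Mlxip, Mlxipl, Mycs and Bmyc. Mlxip, which encodes MondoA, the partner of MLX, fell from 31.8 ± 2.74 to 19.5 ± 2.52 CPM (log2 fold change -0.70, SE 0.11, adjusted p = 7.01e-05). Mlxip and Mlx were thus both lower in YAP5SA. Mga, a large MAX-binding repressor, was at 0.20 (SE 0.09, adjusted p = 0.0536) and was called higher without YAP5SA replicate 4. Bmyc was at 0.19 (adjusted p = 0.473). Mlxipl, which encodes ChREBP, was at 0 throughout Ctrl and had 2 to 3 counts per YAP5SA library, at or under the floor of 3 counts, so no fold is given. Mycs had 0 counts in all libraries.

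Genes that work with the network were then counted in lists. Of 21 MYC cofactors tested, 2 were higher, 9 lower and 10 not called, with a median log2 fold change of -0.04. The shares were 9.52% higher and 42.9% lower, against 33.1% and 31.3% of all genes. The most abundant were Supt5, a transcription elongation factor gene, at -0.16 (SE 0.07, adjusted p = 0.0399), and Mycbp2, at 0.11 (adjusted p = 0.268). The cyclin T gene Ccnt1 rose by 0.34 (SE 0.07, adjusted p = 0.00113), and the chromatin remodelling gene Bptf was at -0.06 (adjusted p = 0.617). The count of higher genes was 1 without Ctrl replicate 2 or 3 or without YAP5SA replicate 1 or 4. Under library size scaling 5 were higher and 4 lower, where 5742 of all 13812 genes were higher and 3201 lower.

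Of 22 genes of the SIN3, histone deacetylase and NCOR corepressors, through which MXD and MNT repress, 12 were higher, 7 lower and 3 not called, with a median of 0.30. The shares were 54.5% higher and 31.8% lower, against 33.1% and 31.3% of all genes. The most abundant all rose: the histone chaperone genes Rbbp4 by 0.33 (SE 0.07) and Rbbp7 by 0.32 (SE 0.07), Sap18 by 0.76 (SE 0.07) and the deacetylase gene Hdac2 by 0.71 (SE 0.11). Their adjusted p-values were at most 0.00166. They were the most abundant by the mean of all libraries. In Ctrl alone, Suds3 (127 CPM) and Hdac1 (118 CPM) lay above Sap18 (101 CPM) and Hdac2 (93.7 CPM). These 2 genes and Hdac3, named after their values were seen, were among the 7 lower. Suds3 was at -0.54 (SE 0.07), and the deacetylase genes Hdac1 and Hdac3 were at -0.48 (SE 0.09) and -0.47 (SE 0.07).

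Of 21 genes of MYC protein turnover, 6 were higher, 4 lower and 11 not called (median -0.01), which is 28.6% higher and 19.0% lower against 33.1% and 31.3% of all genes. Ppp2r5a, a subunit of the phosphatase PP2A, rose by 0.44 (SE 0.08, adjusted p = 0.000184), and the kinase gene Gsk3b, which marks MYC for degradation, fell by 0.23 (SE 0.07, adjusted p = 0.0135). The ubiquitin ligase gene Huwe1 was at 0.08 (adjusted p = 0.370) and the PP2A inhibitor gene Set at 0.07 (adjusted p = 0.440). Scaling by library size called 10 higher and 1 lower, where 5742 of all 13812 genes were higher and 3201 lower. RNA counts do not measure the MYC protein.

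Of 17 tested regulators of Myc transcription, 5 were higher, 4 lower and 8 not called (median 0.13). These shares of 29.4% and 23.5% compare with 33.1% and 31.3% of all genes. Under library size scaling 10 were higher, where 5742 of all 13812 genes were higher. Ctnnb1, the WNT effector beta-catenin, fell from 2033 ± 166 to 1169 ± 104 CPM (log2 fold change -0.80, SE 0.09, adjusted p = 1.76e-06). The TGF-beta effector gene Smad3 rose by 0.71 (SE 0.07, adjusted p = 1.58e-06) and Fubp1, which binds an element upstream of Myc, by 0.38 (SE 0.08, adjusted p = 0.000733). Hnrnpk was at 0.02 (adjusted p = 0.864). Lef1, a nuclear partner of beta-catenin, had 0 counts in all libraries.

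Targets that MYC is known to activate numbered 50, of which 18 were higher, 6 lower and 26 uncalled (median 0.19). The share of 36.0% higher was near the 33.1% of all genes, and 12% were lower against 31.3%. Npm1, a nucleolar chaperone gene, went from 669 ± 105 to 1532 ± 164 CPM (1.20, SE 0.11, adjusted p = 3.93e-07). Ncl, which encodes nucleolin, rose by 0.44 (SE 0.09, adjusted p = 0.000869) and the lactate dehydrogenase gene Ldha by 0.33 (SE 0.10, adjusted p = 0.0109). The cyclin gene Ccnd2 was at -0.11 (adjusted p = 0.450). Under library size scaling 25 of the 50 were higher and 3 lower, where 5742 of all 13812 genes were higher and 3201 lower.

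Targets that MYC is known to repress were tested for 14 genes, of which 8 were higher, 3 lower and 3 uncalled (median 0.83), or 57.1% higher and 21.4% lower against 33.1% and 31.3% of all genes. Thbs1, which encodes a matrix glycoprotein, went from 147 ± 17.9 to 1697 ± 28.2 CPM (3.53, SE 0.09, adjusted p = 2.35e-12). Cdkn1a, which encodes the cell cycle inhibitor p21, fell from 559 ± 63.2 to 292 ± 21.7 CPM (-0.94, SE 0.09, adjusted p = 5.96e-07). Clu fell by 1.58 (SE 0.08) and Tsc22d1 rose by 0.37 (SE 0.08) on the log2 scale. Col1a1, Col3a1 and Pdgfrb of this list are also mesenchymal markers, and none of them was tested.

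Targets of MLX and its Mondo partners were lower in 8 of 13 tested genes, 61.5% against 31.3% of all genes, higher in 3 and not called in 2 (median -0.34). The lipogenic genes Fasn and Me1 fell by 0.93 (SE 0.10) and 1.66 (SE 0.11) on the log2 scale, with adjusted p-values of 1.95e-06 and 8.49e-09. Me1 went from 450 ± 72.1 to 142 ± 9.32 CPM. Txnip, the arrestin-like gene most used as a MondoA readout, was at -0.05 (SE 0.13, adjusted p = 0.755). Its level was 426, 610, 576 and 480 CPM in Ctrl and 481, 588, 566 and 385 CPM in YAP5SA, and the groups overlapped. Klf10 rose by 0.55 (SE 0.10, adjusted p = 0.000221). The 2 abundant targets that fell were thus metabolic enzyme genes, and Txnip was not called. The other arrestin-like genes of the list, named after their values were seen, went opposite ways. Arrdc4 was at -0.49 (SE 0.08, edgeR adjusted p = 7.37e-05) and Arrdc3 at 1.20 (SE 0.13, edgeR adjusted p = 1.47e-06).

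Cell cycle genes are the setting in which Mxd3 is known. Of 25 S phase genes 14 were higher, 0 lower and 11 not called by edgeR (median 0.70), which is 56% higher against 33.1% of all genes. Gins1, a replication gene named after its value was seen, was lower at an unadjusted p of 0.0412 (adjusted p = 0.0624), and 1 gene was called lower by DESeq2, with no filter and without Ctrl replicate 4. The ribonucleotide reductase gene Rrm1 rose by 1.77 (SE 0.12, adjusted p = 1.20e-08), while Pcna (0.15, adjusted p = 0.189), Mcm6 (0.13, adjusted p = 0.522) and Mcm7 (0.04, adjusted p = 0.810) were not called. Of 20 mitosis genes 18 were higher, 1 lower and 1 not called (median 1.19), or 90% higher and 5% lower against 33.1% and 31.3% of all genes. Cdk1, the mitotic kinase gene, rose by 1.83 (SE 0.16), Top2a by 1.14 (SE 0.14) and Mki67 by 0.80 (SE 0.14), with adjusted p-values of at most 0.000178. The exception was Kif23, a kinesin gene of cytokinesis, which fell by 0.53 (SE 0.11, adjusted p = 0.000556). These higher counts stood beside an uncalled Myc, a lower Mycn and a higher Mycl, and a lower Mxd1. How these genes relate to the cell cycle genes was not tested.

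**Figure D4:**
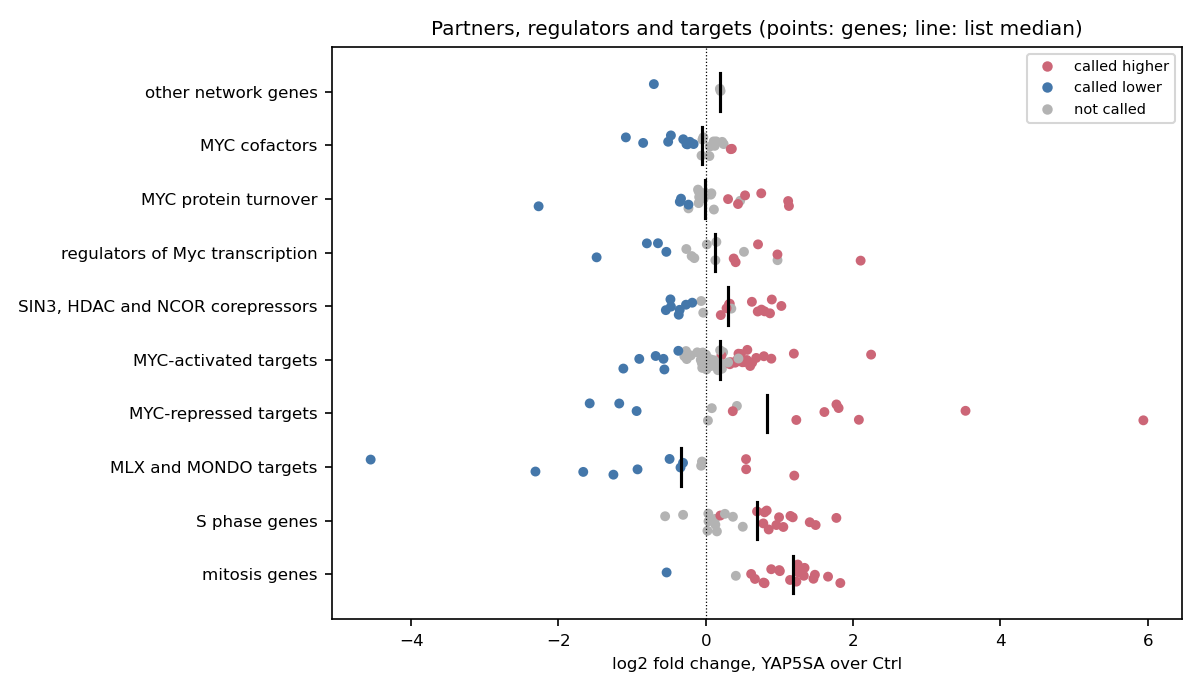
Log2 fold changes (YAP5SA over Ctrl) of the tested genes of each list, 1 point per gene, with the list's median as a line. Mitosis genes have the highest median, 1.19, and targets of MLX and its Mondo partners the lowest, -0.34, while the cofactor and turnover lists lie about 0.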

How the data were processed

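The values the authors deposited are unnormalized read counts for each gene in 8 bulk RNA libraries, 4 Ctrl and 4 YAP5SA. The tools were HTSeq 0.6.1, HISAT2 2.0.1 and cutadapt, with genome build mm9, per the submitters' processing notes. Which annotation and strand setting were used is not given in the sources used here, so coordinates are given for RefSeq promoters alone. Promoters are those of RefSeq on GRCm38.p6, matched by symbol.

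The test was that of edgeR 4.0.16 in R 4.3.3, with filterByExpr (minimum count 10, minimum total 15), TMM scaling, and the two-sided quasi-likelihood F test of YAP5SA against Ctrl with no covariate. Benjamini-Hochberg adjustment ran over the 13812 genes tested and calls were made under 0.05. Standard errors are the log2 fold change over the square root of F. Values in CPM are TMM-scaled. Exon lengths matched by symbol for 96.6% of tested genes. Replicates of a group differed by more than sampling noise (chi-square per degree of freedom 4.94 to 38.3). The procedure was also run on simulated counts in which few genes were changed. In these data 64.5% of tested genes were called, so that run cannot show how the scaling behaves here. Floors and the exact interval of the Mxd3 ratio cover counting error only. The intervals from edgeR rest on the standard errors given above, which include the spread among replicates.

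Groups came from sample titles. The genes and lists were chosen with earlier results of these data known. In each list the 4 tested genes with the highest mean CPM are named, whatever their change, and the 3 genes most like Myc by Pearson r, except that not every gene so chosen is reported here. Alternatives were DESeq2 1.42.0, limma-voom (limma 3.58.1), other scalings and filters, a replicate block, leaving out genes above 1% of a library, and leaving out each library.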

Additional observations from a re-analysis of the deposited data

Results flagged for a closer look

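Each gene of the network and each named gene of the lists was checked in each group of 4 libraries for 1 library far from the other three. Of 98 such groups 11 had one, and of the 20 groups of the network's own genes 6 had one. Chance gives about 1 in 20 for independent groups with normal spread. These groups share the same libraries, so the 6 cannot be read as an excess. Max was at 78.4 CPM in Ctrl replicate 4, against 63.2 to 64.5 in the others, and at 73.0 CPM in YAP5SA replicate 4, against 45.7 to 50.1. YAP5SA replicate 4 was also high for Mxd4, at 68.5 CPM against 54.3 to 55.5, and for Mlx, at 35.2 CPM against 26.6 to 27.9. Mxi1 was low in Ctrl replicate 1, at 78.2 CPM against 92.4 to 94.4, and Mxd3 in Ctrl replicate 2, at 0.0592 CPM, which is 1 count.

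Among the genes of the lists, Gsk3b was low in Ctrl replicate 4 (79.5 CPM against 85.6 to 86.5). In Ctrl replicate 1, Sap18 was high (107 CPM against 98.0 to 99.5), as was Mcm7 (43.0 CPM against 28.4 to 30.5). In YAP5SA replicate 2, Mki67 was low (29.9 CPM against 37.4 to 38.6), as was Kif23 (26.3 CPM against 32.7 to 33.9).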

How the results depend on the processing

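The calls of Mycn, Mycl, Mxd1 and Mlx held in direction and threshold under all 17 alternatives, those of Myc, Max and Mxd4 passed the threshold in 4, 8 and 9 of them, and Mxi1 and Mnt in none. The number of genes called was 8299 to 8972 when a library was left out. The network genes called higher were 2 in place of 1 under upper quartile scaling and library size scaling (both adding Myc), with no filter (adding Mxd3) and with the replicate block (adding Myc). They were 1 to 3 when a library was left out, where Mxd3 passed the filter in 5 fits and Myc was called as well without Ctrl replicate 4, and those called lower were 3 to 5. Mxd3 passed in those fits only through YAP5SA, the group where it was high, so its calls there are not evidence of a rise. The titles number the replicates alike in both groups without saying what a number marks. Same-numbered libraries deviated together with r of 0.0463 to 0.281, and not every library was closest to its own number. With the replicate block 9174 genes were called, in place of 8907. Whether a number marks a shared batch or litter cannot be told from these values. With the replicate block, Myc was at 0.23 (adjusted p = 0.0438) and Max at -0.33 (adjusted p = 0.00236).

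Signs reversed for Mxi1 at 0.037 and Mnt at 0.0045 under upper quartile scaling, for Mxi1 at 0.16 and Mnt at 0.13 under library size scaling, and for Mxi1 at 0.0042 without YAP5SA replicate 4, none of them called. Leaving out 1 library gave -0.10 to 0.0042 for Mxi1. Under library size scaling the called members of the lists were 5 higher and 4 lower for MYC cofactors, 10 and 1 for MYC protein turnover, and 10 higher for regulators of Myc transcription. They were 3 lower for the corepressors and 25 higher and 3 lower for MYC-activated targets. Among all 13812 genes tested, 5742 were higher and 3201 lower under this scaling. Of the other network genes, 1 was higher under upper quartile and library size scaling, with no filter, at 1 CPM in 4 libraries and with the replicate block, and 0 to 1 when a library was left out. S phase genes had 1 lower by DESeq2 and with no filter and 0 to 1 when a library was left out, and MYC cofactors 1 to 3 higher. The cause of these changes was not tested. Depth limits Mxd3 and Mlxipl, which lie near a floor of 3 counts per library.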

Other observations

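Some genes of the lists stood out after their values were seen, and they are given here as values. Among inhibitors of cyclin-dependent kinases, which the list of MYC-repressed targets holds, Cdkn1c rose from 3.88 ± 1.15 to 239 ± 28.3 CPM (SD over 4 libraries), which is 5.94 (SE 0.17) on the log2 scale. Cdkn2c (1.80, SE 0.21) and Cdkn1b (1.23, SE 0.11) rose as well, Cdkn1a fell by 0.94, and Cdkn2b was at 0.08 (edgeR adjusted p = 0.427). The stress response genes Gadd45a, Gadd45b and Gadd45g rose by 1.61, 1.77 and 2.08 on the log2 scale. Among targets of MLX and its Mondo partners, the pyruvate kinase gene Pklr went from 9.85 ± 2.24 to 0.414 ± 0.351 CPM (-4.55, SE 0.41) and the glycerol phosphate dehydrogenase gene Gpd1 from 45.8 ± 3.12 to 9.22 ± 1.13 CPM (-2.31, SE 0.11). Of the MYC-activated targets, the proline synthesis gene Pycr1 rose by 2.24 (SE 0.17), while Cdc25a (-1.12, SE 0.11) and Bop1 (-0.90, SE 0.13) fell. The acetyltransferase genes Kat2a (-1.08, SE 0.12) and Crebbp (-0.85, SE 0.16), both MYC cofactors, fell too.

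The Ctrl libraries differed among themselves in several of these genes. Ctrl replicates 1 and 4 had more Myc (46.2 and 46.9 CPM) than replicates 2 and 3 (33.6 and 36.2 CPM), and less Mxd1 (186 and 225 against 384 and 321 CPM). Npm1 stood at 822 and 637 CPM in replicates 1 and 4 and at 582 and 633 CPM in replicates 2 and 3, and Cdkn1a at 491 and 520 against 625 and 598 CPM. With 4 libraries these values are a description, and no test was made.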
